A study of Mus musculus with 24 samples.

Results

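The genes described here encode subunits of the Polycomb repressive complexes and the enzymes that remove the Polycomb mark from histone H3. They are Ezh1, Ezh2, Eed, Suz12 and Jarid2 of Polycomb repressive complex PRC2, Rnf2, Ring1 and Pcgf6 of the complex PRC1, and the H3K27 demethylases Kdm6a and Kdm6b. The 10 genes were taken by name from the RNA-seq table, which holds 16572 gene names, and each was present in 1 row.

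The RNA-seq libraries came from class IV oocytes, the largest size, given as 60 to 70 μm in the labels of both groups, although the methods describe a smaller range for the oocytes taken from 20% O2. Ovaries of mice aged 7 days, labelled C57BL/6 Barb and described in the methods as a C57 Black6 by SV129 background, were dissociated and the oocytes were grown without follicles, at first over theca-like cells. IV 5% O2 oocytes were grown in 5% oxygen for 9 days and IV 20% O2 oocytes in 20% oxygen for 14 days, so oxygen, time in culture and any difference in oocyte size cannot be told apart. The treatment label of these libraries names oxygen alone. The study describes a medium with stem cell factor, EGF and FSH for the culture model, and the medium was renewed more often at 5% O2. Each condition had 2 libraries made from pooled oocytes, but the table gives 1 pooled column per condition, so no value below has an SD, a replicate check or a p-value.

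PRC2 places methyl groups on lysine 27 of histone H3. Ezh2 and its paralog Ezh1 carry the catalytic SET domain, Eed binds the finished mark, Suz12 holds the complex together, and Jarid2 helps to recruit it and to stimulate its activity. PRC1 attaches ubiquitin to a lysine in the tail of histone H2A through the RING proteins Rnf2 (also called Ring1b) and Ring1, each of which pairs with a PCGF protein that defines the type of PRC1. Pcgf6 belongs to a variant PRC1 with the DNA-binding proteins Mga and Max. Kdm6a and Kdm6b are JmjC dioxygenases that use molecular oxygen and alpha-ketoglutarate to remove methyl groups from H3K27. In growing oocytes H3K27me3 is laid down over wide domains, some of which are passed on to the embryo.

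The values are RPM, reads scaled to the same total in each column. The 16572 genes do not add up to that total, and their sum was larger for IV 5% O2 (828571 RPM) than for IV 20% O2 (726899 RPM). Differences as deposited are not corrected for these unequal sums, and the part of the sums in them was not tested. The value of 1 read implied a depth of 132185254 reads in IV 5% O2 and of 40875363 reads in IV 20% O2, which makes the IV 5% O2 values the more precise. The limit that 0 reads allow, 3 reads, comes to 0.0227 RPM for IV 5% O2 and 0.0734 for IV 20% O2. Every interval given is a 95% interval computed from the reads and covers counting error only, since each condition has 1 pooled column. The reads carry no molecular identifiers, so copies of 1 molecule count as separate reads and the intervals may be too narrow. In bulk RNA, fewer cells of a type and less RNA per cell cannot be told apart. A log2 difference is log2(RPM + 1) of IV 5% O2 minus that of IV 20% O2, a scale that shrinks the change of low genes. It was taken for the 14704 genes whose mean reached 1 RPM. Their median difference was 0.26 as deposited, -0.04 after median-ratio scaling and 0.06 after quantile normalization. Each of the 10 genes passed this limit.

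Kdm6b and Ring1 stood out as lower in IV 5% O2, whereas none of the 10 genes was at least 2-fold higher there. At least 2-fold lower were 2 of 10, beside 9.22% of all genes tested, and at least 2-fold higher were 0 of 10, beside 18.7%. The lower calls were 2 of 10 also after the other scalings, where the share of all genes was 13.9% (median-ratio) and 12.7% (quantile). Of the lower genes, Ring1 reached the mean of 1 RPM only through IV 20% O2, the column where it is higher, so Kdm6b is the only lower call that does not rest on this limit. The median difference of the 10 genes, 0.25, lay next to that of all genes, 0.26, and 5 of the 10 were above the median gene. The 5 PRC2 genes were higher in IV 5% O2 as deposited, with differences from 0.12 to 0.70 and a median of 0.40. Of all genes tested, 62.6% had a difference above 0. With the other scalings, Ezh1, Eed, Suz12, Jarid2 and Pcgf6 stayed higher and Rnf2, Ring1 and Kdm6b stayed lower in IV 5% O2, while Ezh2 and Kdm6a changed sign. Ezh1 and Jarid2 came close to 0, at 0.067 and 0.084 after median-ratio scaling and 0.18 and 0.22 after quantile normalization.

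**Figure D1:**
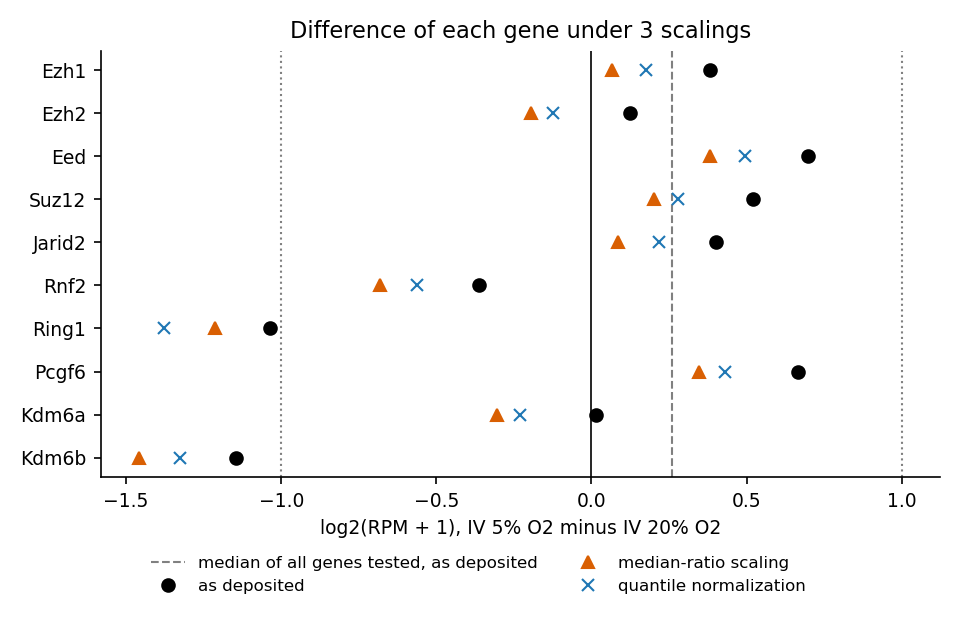
Log2 difference, IV 5% O2 minus IV 20% O2 on log2(RPM + 1), of each gene (rows) as deposited (circles), after median-ratio scaling (triangles) and after quantile normalization (crosses). The dashed line is the median of all genes tested, 0.26, and the dotted lines mark 2-fold; Ring1 and Kdm6b lie beyond the lower line in each case, and Ezh2 and Kdm6a cross 0.

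Among the catalytic subunits of PRC2, Ezh2 was the more abundant per kb of exon in each column. Ezh2 (GRCm38 chromosome 6, 47530139 to 47595341, minus strand) stood at 200.1 RPM (26444 reads) in IV 5% O2 against 183 RPM (7498 reads) in IV 20% O2. The ratio of the RPM values was 1.09 (interval 1.06 to 1.12), so IV 5% O2 was the higher column by more than counting error. Its log2 difference of 0.12 nevertheless lay below that of the median gene (-0.13 relative to it), and it was -0.19 after median-ratio scaling and -0.12 after quantile normalization. Ezh1 (chromosome 11, 101191115 to 101226463, minus strand) stood at 92.9 RPM (12285 reads) in IV 5% O2 against 71.0 RPM (2904 reads) in IV 20% O2. That is a ratio of 1.31 (interval 1.26 to 1.36), a difference of 0.38 and of 0.12 relative to the median gene. Ezh1 thus stood further above its IV 20% O2 value than Ezh2 did.

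Suz12 and Eed, core subunits without catalytic activity, were higher in IV 5% O2 under every scaling. Suz12 (chromosome 11, 79993106 to 80034123, plus strand) stood at 206 RPM in IV 5% O2 against 143 RPM in IV 20% O2, a ratio of 1.44 (interval 1.40 to 1.48). Its difference was 0.52, or 0.26 relative to the median gene. Eed (chromosome 7, 89954654 to 89980983, minus strand) had 95.03 RPM (12561 reads) and 58.3 RPM (2381 reads). With a ratio of 1.63 (interval 1.56 to 1.71), Eed had the largest difference of the 10 genes in this direction, 0.70, and 70.1% of all genes tested had a lower one. Relative to the median gene Eed was at 0.44, and it was at 0.38 with median-ratio scaling. Jarid2, the accessory subunit (chromosome 13, 44729474 to 44921643, plus strand), stood at 133 RPM in IV 5% O2 against 100.5 RPM in IV 20% O2. The ratio for Jarid2 was 1.32 (interval 1.28 to 1.37) and the difference 0.40, close to those of Ezh1.

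The genes of PRC1 differed in direction: Pcgf6 was higher and Rnf2 and Ring1 were lower in IV 5% O2. Rnf2, a RING ubiquitin ligase (chromosome 1, 151458004 to 151500955, minus strand), stood at 119.1 RPM (15743 reads) in IV 5% O2 against 153 RPM (6272 reads) in IV 20% O2. This is a ratio of 0.776 (interval 0.754 to 0.799) and a difference of -0.36, or -0.62 relative to the median gene. Ring1, its paralog (chromosome 17, 34020792 to 34024680, minus strand), was low in both columns, with 0.681 RPM in IV 5% O2 from 90 reads and 2.45 RPM in IV 20% O2 from 100 reads. The ratio of 0.278 (interval 0.207 to 0.374) was the lowest of the 10 genes, and its log2 difference was -1.04. The level of Ring1 is low against the pseudocount, on which its call depends: with 5 RPM in place of 1 RPM the difference was -0.39, and with 0.1 RPM it was -1.71. Pcgf6 (chromosome 19, 47033617 to 47050906, minus strand) was higher in IV 5% O2, with 234 RPM (30989 reads) against 147 RPM (6027 reads). Its ratio was 1.59 (interval 1.55 to 1.63) and its difference 0.67, or 0.41 relative to the median gene.

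The H3K27 demethylases differed from each other. Kdm6a (chromosome X, 18162575 to 18279936, plus strand) stood at 247 RPM (32606 reads) in IV 5% O2 against 244 RPM (9984 reads) in IV 20% O2. The interval of its ratio, 0.987 to 1.03 around 1.01, includes equal values as deposited. Relative to the median gene Kdm6a was lower by 0.24 (-0.24), and it was at -0.30 and -0.23 after median-ratio scaling and after quantile normalization. Kdm6b (chromosome 11, 69398508 to 69413675, minus strand) stood at 33.3 RPM (4401 reads) in IV 5% O2 against 74.9 RPM (3060 reads) in IV 20% O2. The ratio was 0.445 (interval 0.425 to 0.466) and the difference -1.15, or -1.40 relative to the median gene, and 7.34% of all genes tested had a lower difference. The call of Kdm6b held with pseudocounts of 0.1 and 5 RPM and with the other scalings. Uty, the Y-linked member of the same family, was not in the table.

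Exons of Kdm6b share 286 bases with Kdm6bos, an antisense gene that stood at 3.53 RPM in IV 5% O2 against 7.95 RPM in IV 20% O2, a ratio of 0.443. The shared bases are 4.11% of the exonic length of Kdm6b. Ezh2, Eed, Suz12 and Rnf2 overlap genes of the opposite strand over 2.61% to 6.82% of their exons. The largest share is that of Eed with E230029C05Rik, which stood at 3.92 RPM (518 reads) in IV 5% O2 against 0.514 RPM (21 reads) in IV 20% O2, the same direction as Eed. Trmt1l, which overlaps Rnf2, stood at 31.1 RPM in IV 5% O2 against 22.5 RPM in IV 20% O2, the other direction from Rnf2. The part of these overlaps in the values was not tested. The libraries were strand-specific, but whether the strand was used in counting is not given in the sources used here. Repeated sequence was rare: of the 100-base windows of these exons, 0.287% of those of Suz12 and none of the other 9 genes occurred again in the genome. For 50-base windows the highest share was 3.11%, also in Suz12.

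To compare levels between genes, RPM was divided by the merged exonic length in kb. By this length, Pcgf6 and Suz12 led in IV 5% O2 with 46.6 and 41.7 RPM per kb. Ezh2, Kdm6a and Rnf2 followed at 29.96, 29.4 and 28.9, and each of these overlapped the next within counting error. Eed was at 24.8, Jarid2 at 13.7, Ezh1 at 12.5 and Kdm6b at 4.79 RPM per kb. Ring1 came last with 0.210 RPM per kb, and 3.14% of the genes tested had a lower per-kb level. In IV 20% O2 the order was led by Rnf2 with 37.2 RPM per kb, then Pcgf6, Kdm6a and Suz12 at 29.3, 29.1 and 29.0, which overlapped within counting error, and Ezh2 at 27.5. Eed had 15.2, Kdm6b 10.8, Jarid2 10.3 and Ezh1 9.55 RPM per kb there, and Kdm6b and Jarid2 overlapped. Ring1 was again last with 0.754 RPM per kb, with 17.8% of genes below it. Kdm6b exceeded 72.9% of the genes tested in IV 20% O2 and 50.4% in IV 5% O2, whereas Suz12 exceeded 90.4% and 92.9%. The order depends on the length used, an error that the counting intervals do not cover. With the longest annotated transcript in place of the merged exons, Ezh2 had 71.8 RPM per kb in IV 5% O2, behind Pcgf6 with 82.8 and ahead of Suz12 with 47.2. In IV 20% O2, Ezh2 then led with 65.8 RPM per kb, before Pcgf6 with 52.1 and Rnf2 with 47.9. Ring1 was last by either length.

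**Figure D2:**
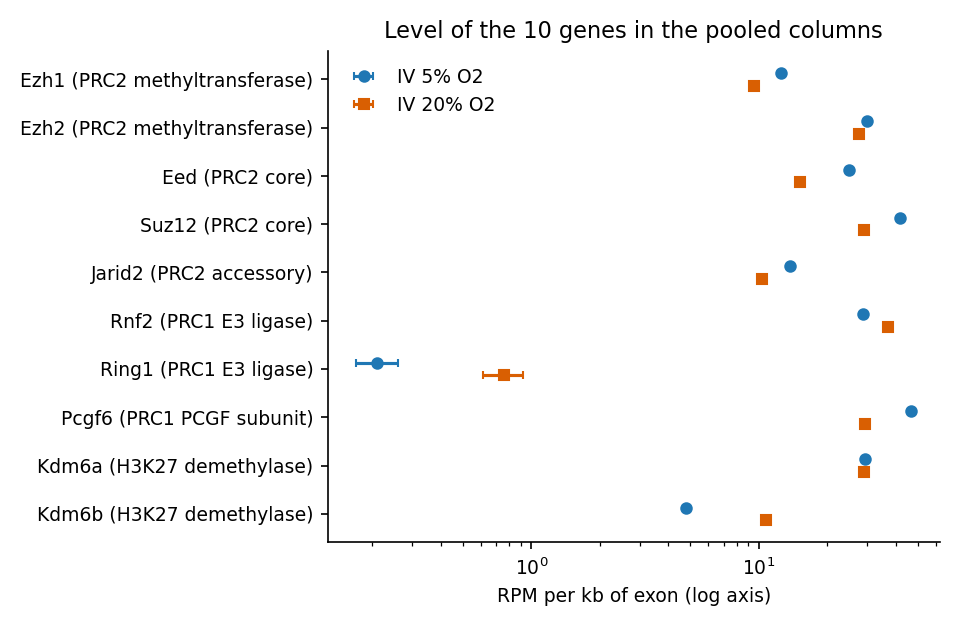
Level of each gene in RPM per kb of exon (log axis) in IV 5% O2 (circles) and IV 20% O2 (squares); bars are exact 95% counting intervals of the single pooled column and are visible for Ring1 alone. Ring1, at 0.210 and 0.754 RPM per kb, lies far below the other 9 genes, and Kdm6b shows the wide gap of 4.79 against 10.8.

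Ratios between genes within a column do not change when a column is multiplied by 1 factor, as in median-ratio scaling, though quantile normalization can change them. Kdm6a exceeded Kdm6b 2.71-fold per kb in IV 20% O2 (interval 2.60 to 2.82) and 6.15-fold in IV 5% O2 (interval 5.96 to 6.34). The Kdm6a to Kdm6b ratio was thus 2.27 times as large in IV 5% O2. Rnf2 exceeded Ring1 49.3-fold in IV 20% O2 (interval 40.5 to 60.7) and 137-fold in IV 5% O2 (interval 112 to 171). For Ezh2 over Ezh1 the ratio was 2.88 in IV 20% O2 (interval 2.76 to 3.004) and 2.40 in IV 5% O2 (interval 2.35 to 2.45). Of the per-kb level of both EZH genes, Ezh2 held 74.2% in IV 20% O2 and 70.6% in IV 5% O2. Ring1 made up 1.99% and 0.722% of the RING pair, and Kdm6b 26.98% and 14.0% of the KDM6 pair.

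The balance between subunits differed between the columns as well, although its level in a column again depends on the length used. Ezh1 and Ezh2 together stood at 1.28 times Suz12 per kb in IV 20% O2 (interval 1.24 to 1.32) and at 1.02 times in IV 5% O2 (interval 1.00 to 1.03). Eed stood at 0.525 of Suz12 in IV 20% O2 and at 0.595 in IV 5% O2, and Jarid2 at 0.357 and 0.328. With the longest transcript as length, Ezh1 and Ezh2 together stood at 2.52 and 1.99 times Suz12, and Eed at 0.859 and 0.975 of it. Of the 5 balances computed, that of Pcgf6 to Rnf2 differed most. Pcgf6 was at 0.789 of the Rnf2 level in IV 20% O2 (interval 0.761 to 0.817) and at 1.62 times that level in IV 5% O2 (interval 1.59 to 1.65), a fold of 2.05 between the ratios (interval 1.97 to 2.13). With the longest transcript Pcgf6 exceeded Rnf2 in both columns, at 1.09 times in IV 20% O2 and 2.22 times in IV 5% O2, and the fold between the ratios was the same. The demethylases Kdm6a and Kdm6b together amounted to 1.08 times the methyltransferases Ezh1 and Ezh2 in IV 20% O2 and to 0.806 of them in IV 5% O2. The fold between these ratios was 0.748 (interval 0.726 to 0.770). With the longest transcript the demethylases were below the methyltransferases in both columns, at 0.634 and 0.496 of them, with a fold of 0.783. These are ratios of RNA levels per kb in pooled libraries, and their spread between libraries is not known.

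Within the PCGF family, Pcgf6 held 20.1% of the per-kb level in IV 5% O2 and 19.7% in IV 20% O2. Pcgf1, the PCGF protein of the variant PRC1 with Kdm2b and Bcor, held the largest share with 55.2% and 52.8%. Bmi1, a PCGF protein of canonical PRC1 that was named after its values were seen, held 22.4% and 24.99%. With the longest transcript as length Bmi1 held less than Pcgf6, with 15.2% and 17.2% against 21.9% and 21.7%. Of the 100-base windows of Bmi1, 8.36% occurred again in the genome, so its share is less certain than that of Pcgf6, which had none. Pcgf6 had a like share of its family in both columns although its own level was higher in IV 5% O2, as were those of Pcgf1 and Bmi1.

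**Figure D3:**
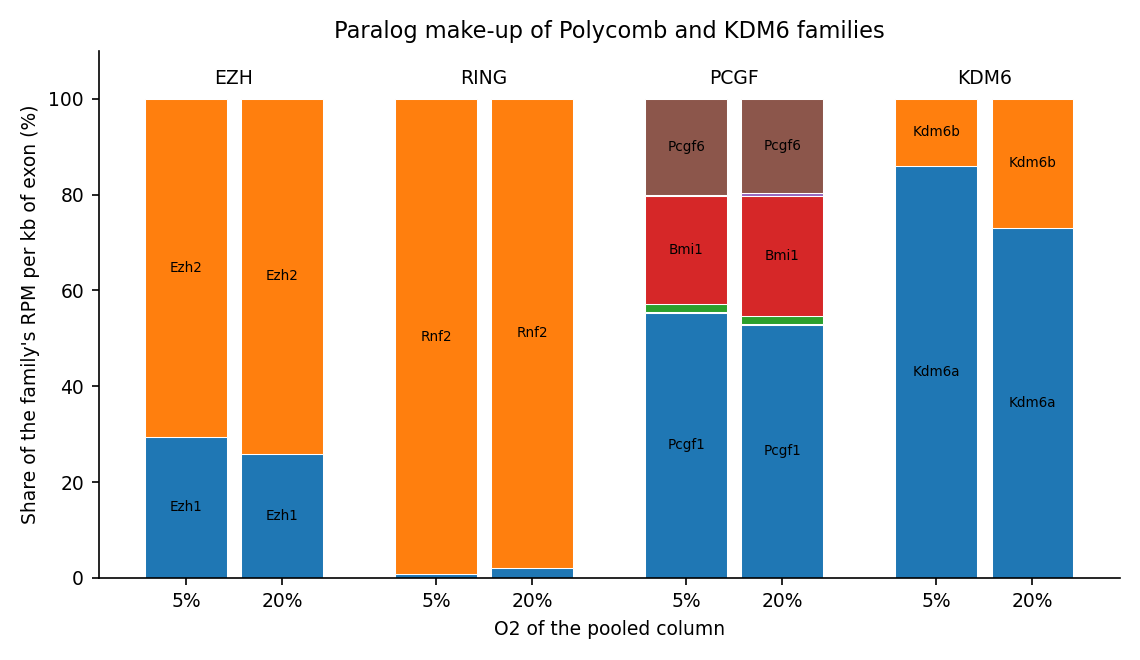
Share of each paralog (stacked segments, %) in the RPM per kb of exon of its family, for the EZH, RING, PCGF and KDM6 families in the IV 5% O2 and IV 20% O2 columns. The Kdm6b segment is 14.0% in 5% O2 and 26.98% in 20% O2, Rnf2 fills nearly the whole RING bar above the thin unlabelled Ring1 segment, the thin PCGF segments are Pcgf2, Pcgf3 and Pcgf5, and the Pcgf6 segment is 20.1% and 19.7%.

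The promoter sequences of Eed and Pcgf6, which had the largest differences towards IV 5% O2, and of Ring1, which had the lowest ratio, are shown with matches to motifs in capitals. They run from 250 bases before the annotated RefSeq start to 50 bases after its first base, 5′ to 3′ on the strand of the gene in GRCm38.p6. The motifs searched on both strands were the core of the hypoxia response element (ACGTG or GCGTG), the E-box CACGTG, which contains ACGTG, and the E2F motif (TTTCGCGC or TTTGGCGC).
Eed, chr7:89980927-89981226, minus strand: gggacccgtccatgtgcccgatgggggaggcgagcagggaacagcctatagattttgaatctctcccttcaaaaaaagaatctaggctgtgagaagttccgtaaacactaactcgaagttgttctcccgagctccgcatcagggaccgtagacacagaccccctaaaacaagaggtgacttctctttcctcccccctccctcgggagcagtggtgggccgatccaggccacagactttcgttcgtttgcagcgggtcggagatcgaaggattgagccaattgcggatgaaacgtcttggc
Pcgf6, chr19:47050857-47051156, minus strand: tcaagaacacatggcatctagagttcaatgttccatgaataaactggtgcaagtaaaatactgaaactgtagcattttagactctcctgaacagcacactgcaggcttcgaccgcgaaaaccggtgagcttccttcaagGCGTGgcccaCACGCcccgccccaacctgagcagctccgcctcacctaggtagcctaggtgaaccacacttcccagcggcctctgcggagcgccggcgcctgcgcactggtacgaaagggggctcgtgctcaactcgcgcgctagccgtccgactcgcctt
Ring1, chr17:34024631-34024930, minus strand: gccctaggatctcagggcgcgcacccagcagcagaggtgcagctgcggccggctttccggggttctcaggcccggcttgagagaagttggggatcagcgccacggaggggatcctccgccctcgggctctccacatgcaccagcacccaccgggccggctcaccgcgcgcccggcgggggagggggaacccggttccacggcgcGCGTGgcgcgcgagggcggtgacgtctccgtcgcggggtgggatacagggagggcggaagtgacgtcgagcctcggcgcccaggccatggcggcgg
The capitals mark 2 matches to the hypoxia response element core in Pcgf6 and 1 in Ring1, and there is none in Eed. A promoter was listed for 9 of the 10 genes, with 2 for Jarid2, and Kdm6b had none in the table used. Of these 10 promoters, 9 held the hypoxia response element core, as did 43.8% of all 32851 promoters and 64.7% of the 51 promoters of other Polycomb genes. The E-box was found in 1 (Kdm6a) and the E2F motif in 1 (Ezh2), beside 7.15% and 0.813% of all promoters. The median number of CpG sites per 300 bases was 23.5 for these genes, 24 for the other Polycomb genes and 7 for all promoters. A match of these letters is a description, not a site.

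Beyond these genes, 46 other Polycomb genes were listed by function, all of which are in the table and 45 of which reached a mean of 1 RPM. Of the 45, 4 were at least 2-fold higher in IV 5% O2, beside 18.7% of all genes, and 2 at least 2-fold lower, beside 9.22%. Their median difference was 0.30, near that of all genes. Among the higher genes, 3 encode accessory proteins of PRC2. Ezhip, which encodes an inhibitor of PRC2 and is listed under an older name, stood at 605 RPM in IV 5% O2 against 213 RPM in IV 20% O2, a ratio of 2.84 (interval 2.78 to 2.91). Phf19 had 14.1 and 4.09 RPM and Mtf2 had 110 and 54.3 RPM, and both are Polycomb-like proteins that help PRC2 to find its sites. Mtf2, at a difference of 1.01, lies just beyond the limit, and median-ratio scaling put it at 0.70. The fourth, Yaf2, a subunit of variant PRC1, had 49.4 and 19.2 RPM. Lower were Phc3 of canonical PRC1, with 38.4 RPM in IV 5% O2 against 85.5 RPM in IV 20% O2, and Auts2 of a variant PRC1, with 24.9 and 53.7 RPM. Per kb, Rbbp7, Ezhip and Pcgf1 had the highest levels of these genes, and Rbbp7, a histone-binding subunit of PRC2, reached 299 and 225 RPM per kb. Of the 100-base windows of the exons of Rbbp7 and Pcgf1, 8.84% and 3.66% occurred again in the genome, so their levels are less certain.

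**Figure D4:**
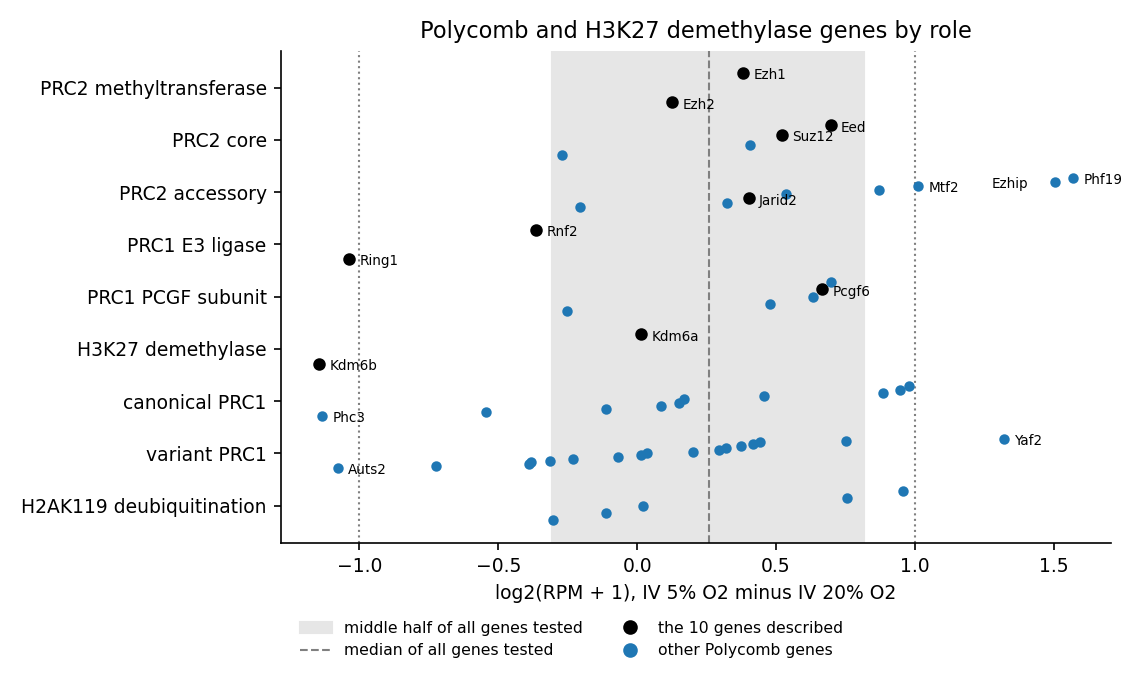
Log2 difference, IV 5% O2 minus IV 20% O2 on log2(RPM + 1), of the 10 genes (black) and of the other Polycomb genes whose mean reached 1 RPM (blue), by role; the grey band spans the middle 50% of all genes tested (-0.31 to 0.82), the dashed line is their median and the dotted lines mark 2-fold. Of the 10 genes, Rnf2, Ring1 and Kdm6b lie below the band and the other 7 inside it.

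The columns also differed in markers of other cells. All 12 oocyte markers were present, led by Zp2 and Gdf9, and their summed level was 9852 RPM in IV 5% O2 against 13690 RPM in IV 20% O2. As deposited, 3 of the 12 (Zp2, Zp3 and Kit) were at least 2-fold lower in IV 5% O2, beside 9.22% of all genes (13.9% after median-ratio scaling). A difference above 0 was seen for 4 of the 12, beside 62.6% of all genes. Relative to the median gene, 1 of the 12, Nobox, was higher. Of the markers above 0 as deposited, Nlrp5, Dppa3 and Ddx4 were at -0.26, -0.28 and -0.17 after median-ratio scaling. With quantile normalization, Nobox (0.69) and Gdf9 (0.22) were above 0. Of 15 theca and stroma markers 10 are in the table, led by Cyp11a1 and Fn1, and they summed to 45.3 RPM in IV 5% O2 against 5.48 RPM in IV 20% O2, where Vim, Dcn and Col1a2 had no reads. The granulosa markers in the table (5 of 10, led by Kitl and Cyp19a1) summed to 22.6 and 12.2 RPM, the macrophage markers (3 of 5, led by Csf1r and Cd68) to 17.9 and 21.1 RPM and the endothelial markers (3 of 4, led by Pecam1 and Tek) to 61.0 and 36.1 RPM. The lower macrophage sum in IV 5% O2 came from Csf1r (9.28 against 15.0 RPM), while Cd68 (7.18 against 6.14 RPM) and Lyz2 (1.39 RPM against no reads) went the other way. Inha and Kdr also had no reads in IV 20% O2, and Fshr had none in IV 5% O2. Alas2 was the only erythroid marker of 5 in the table, with 1.32 and 1.57 RPM. The part of such RNA in the differences above was not tested.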

How the data were processed

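Per the processing notes and methods, the authors trimmed reads (Trim Galore), aligned them to mm10 (GRCm38) with TopHat2 2.0.9 and merged reads across the exons of an oocyte transcript annotation in SeqMonk. They deposited log2 values, 1 column for each of the 2 conditions; how the libraries were pooled is not given in the sources used here. The methods state a length correction, but the linear values are whole multiples of 1 step per column (98.3% and 99.8% of values within 0.01 of a whole read), so they were read as RPM. Genes without reads, written as 0.9 of a read, were set to 0. Another value column (1) matches none of the series' samples and was not used. The RRBS and PBAT libraries were not analysed here.

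Differences were taken on log2(RPM + 1) where the mean reached 1 RPM. Per-kb levels use the merged exons of GENCODE M21 (GRCm38), which holds all 10 genes at the coordinates of their rows. The methods name an oocyte transcript annotation instead, so which exons were counted is not certain. Windows of 50 and 100 bases, 10 bases apart, were searched in 22 chromosome sequences. Pooled columns allow no test between libraries. Intervals are at 95%: exact Poisson for levels, Clopper-Pearson for ratios of reads, and normal on the log scale for subunit balances and for folds between ratios. They do not cover the choice of length. The code was tested on simulated reads. The genes and lists were chosen with earlier results of these data known. Named are the 10 genes, other Polycomb genes at least 2-fold apart or among the 3 highest per kb, and up to 5 Hox genes. Genes imprinted through H3K27me3 and the 2 highest markers per list are named as well. Bmi1, Hoxb2, Hoxd3, Hoxa10, Hoxa13, Hoxc13 and markers outside this rule were chosen after their values were seen. Alternatives were other pseudocounts (0.1 and 5 RPM), filters, scalings, sums over rows and lengths (balances and family shares by the longest transcript were added after seeing the data). Software was Python 3.11.15 with pandas 2.3.3, numpy 2.4.6, numba 0.67.0, matplotlib 3.10.9 and scipy 1.17.1.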

Additional observations from a re-analysis of the deposited data

How the results depend on the processing

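No paired analysis was possible because neither column separates its libraries. The fits by limma, with a replicate block and without each replicate were therefore not run. Of the 2 genes at least 2-fold lower in IV 5% O2, 1 was left with a pseudocount of 5 RPM, where Ring1 was at -0.39, and 1 when the mean had to reach 5 RPM, a limit that Ring1 does not reach. The lower other Polycomb genes became 1 with a pseudocount of 5 RPM. The median of the 10 genes was 0.38 over the 9 whose mean reached 5 RPM, -0.063 after median-ratio scaling and 0.026 after quantile normalization, and that of the other Polycomb genes was -0.021 after median-ratio scaling. Ezh2 (-0.19 and -0.12) and Kdm6a (-0.30 and -0.23) changed sign under these scalings, which lower the median of all genes by construction. With each scaling, 7 of the 10 differences moved by more than their counting interval, 2 changed sign and 1 did neither. With a pseudocount of 0.1 RPM 9 of 10, and with 5 RPM 8 of 10, moved by less than that interval.

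Among all genes, 1202 were at least 2-fold higher and 706 lower with a pseudocount of 5 RPM, against 2753 and 1356. The higher ones were 1691 where the mean reached 5 RPM, 1700 after median-ratio scaling and 1764 after quantile normalization, and the lower ones 917, 2031 and 1866. Higher calls made up 67.0% of calls as deposited and 45.6% and 48.6% after these scalings. The other Polycomb genes had few calls, with 4 higher and 2 lower as deposited (66.7% higher). After median-ratio scaling they were 3 and 3 (50%), and after quantile normalization 3 and 2 (60%). With the longest transcript as length, the log2 ratio of Ezh2 to Ezh1 was 1.70 in IV 5% O2 and 1.96 in IV 20% O2, against 1.26 and 1.52, and that of Kdm6a to Kdm6b 3.05 and 1.87, against 2.62 and 1.44. Without length, these ratios were 1.11 and 1.37 for Ezh2 to Ezh1, 7.45 and 5.97 for Rnf2 to Ring1, and 2.89 and 1.71 for Kdm6a to Kdm6b. Length cancels when a ratio of 2 genes is compared between the columns. The balances with the longest transcript were computed after the data were seen. In IV 5% O2 and IV 20% O2 they were 1.99 and 2.52 for Ezh1 plus Ezh2 to Suz12, 0.975 and 0.859 for Eed to Suz12, 2.22 and 1.09 for Pcgf6 to Rnf2, and 0.496 and 0.634 for the demethylases to the methyltransferases, whose fold between columns became 0.783; Jarid2 to Suz12 was 0.338 in IV 5% O2. The shallower IV 20% O2 column limits the ratios, and Ring1 rests on 90 and 100 reads.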

Other observations

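Genes that Polycomb is known to hold silent were listed as well. Of the 39 Hox genes, which encode transcription factors of body patterning, 11 are in the table and 7 had a mean of at least 1 RPM. As deposited, none of the 7 was at least 2-fold apart, beside 18.7% higher and 9.22% lower of all genes. Their median difference was -0.48. Hoxc13 and Hoxd13 were at least 2-fold lower in IV 5% O2 after median-ratio scaling (-1.13 and -1.01) and quantile normalization (-1.29 and -1.19). Of all genes, 13.9% and 12.7% were lower with these scalings. Both Hox genes reached the mean of 1 RPM only through IV 20% O2, the column where they are higher. The 4 below that mean each differed by more than 2-fold on log2(RPM + 1), in both directions: Hoxb2 (203 reads in IV 5% O2 and 2 in IV 20% O2, a difference of 1.27) and Hoxd3 (160 and 0 reads, 1.14) were higher in IV 5% O2, and Hoxa10 (0 and 56 reads, -1.24) and Hoxa13 (12 and 78 reads, -1.41) were lower. Of the 5 with the highest mean, Hoxd1 was not low per kb of exon. It had 7.38 RPM per kb in IV 5% O2 and 10.5 in IV 20% O2, above 61.0% and 72.4% of the genes tested. Hoxd1 stood at 13.7 RPM in IV 5% O2 against 19.6 RPM in IV 20% O2, Hoxd9 had 7.12 and 6.56 RPM, and Hoxa7 had 5.73 and 4.04 RPM. Hoxd8 had 2.89 and 4.38 RPM, and Hoxd13 had 0.741 and 2.10 RPM. No Hox gene exceeded 19.6 RPM in either column.

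Some genes are silenced on the maternal allele of the embryo through H3K27me3 that is set in the oocyte, and 5 of 6 such genes are in the table. All 5 had a lower value in IV 5% O2 with each scaling tried, and 3 of the 4 tested were at least 2-fold lower, beside 9.22% of all genes, or 13.9% after median-ratio scaling. Of these 3, Slc38a4 reached the mean of 1 RPM only through IV 20% O2, the column where it is higher. Smoc1 stood at 22.7 RPM in IV 5% O2 against 71.5 RPM in IV 20% O2, a ratio of 0.317 (interval 0.301 to 0.334). Jade1 had 6.79 and 15.4 RPM, a ratio of 0.442 (interval 0.398 to 0.490). Slc38a4 had 0.953 RPM from 126 reads and 4.16 RPM from 170 reads, and Gab1 had 3.31 and 5.26 RPM. Sfmbt2, at 0.174 and 1.49 RPM, did not reach the mean of 1 RPM, and Xist was not in the table. The list was written with earlier results of these data known, and no cause of these values was tested.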
